A study of Mus musculus with 7 samples.

Results

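The genes described here are 40 genes of hypoxia and glycolysis, of which 24 encode glycolytic enzymes, transporters and regulators of pyruvate use and 16 encode hypoxia regulators and targets. They were chosen by gene symbol through the array's probe annotation, keeping probe sets that name a single gene and, for each gene, the probe set that was brightest on average over all arrays. Of the 40 genes, 36 had such a probe set, 33 were bright enough to be tested, and 3 were not, out of 12393 named genes on the array, of which 9243 were tested. Slc16a3, Pdk4 and P4ha2 were below the filter, whereas Gpi1, Eno1 and Bnip3l had no probe set naming them alone, and Gapdh was measured only by array control probe sets.

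The study profiled mRNA from mouse gliomas driven by PDGFB, on 7 Affymetrix arrays, across 3 genotypes of Ptprd, a gene for a tyrosine phosphatase with a receptor-like form. There were 2 arrays of Ptprd+/- p16-/- tumours (heterozygous), 3 of Ptprd-/- p16-/- tumours (null) and 2 of Ptprd+/+ p16-/- tumours (wild type), so every group, wild type included, lacked p16. Tumours were started by injecting the avian retrovirus RCAS, carrying PDGFB and GFP, into the brain between postnatal days 1 and 3, and were collected when mice showed symptoms or at 12 weeks. The virus enters only cells that carry the receptor tv-A, here driven by the Nestin promoter, so the tumours start from a chosen class of neural cells. The strain background of the mice was a mix of C57/BL6 and FVB/N, and the arrays are labelled as biological replicates without saying whether each holds the cells of 1 mouse. Tumour tissue was digested with papain and GFP-positive, DAPI-negative cells were sorted, and 75 ng of RNA per array was labelled from its 3' end. Values are log2 intensities, so a difference of 1 is a 2-fold change, and the small number of arrays limits the precision of every value.

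Ptprd itself was measured at 9.42 and 9.57 in heterozygous cells, at 9.61, 8.95 and 9.93 in null cells, and at 10.86 and 10.89 in wild-type cells. Every heterozygous and null array lay below both wild-type arrays, and the null and heterozygous arrays overlapped. The heterozygous minus wild-type difference was -1.37 ± 0.28 (SE, limma adjusted p = 0.0311) and the null minus wild-type difference was -1.37 ± 0.26 (adjusted p = 0.883). Where the probe set lies relative to the deleted part of the gene is not given in the sources used here, so the null level is no check of the deletion. Array medians ran from 6.62 to 6.71 and arrays correlated at 0.976 to 0.995 over all probe sets, with heterozygous arrays at 0.976 to 0.987 against the other genotypes. Heterozygous replicate 1 and null replicate 1 each carried both Xist, which female cells express, and the Y-linked transcripts Eif2s3y and Kdm5d, and results without these arrays are given with each comparison. Oligodendrocyte progenitor markers were bright in all samples. Their mean log2 level was 11.06 to 11.25 in heterozygous, 11.35 to 11.42 in null and 11.45 to 11.45 in wild-type arrays. The endothelial markers Pecam1 and Cdh5 and the neuron marker Rbfox3 were below the filter, but other markers of these lists were not. Of those with a probe set, 9 of 15 endothelial and pericyte markers and 8 of 12 neuron markers were bright enough to be tested. So were 10 of 10 astrocyte and 8 of 8 myelin markers. The myelin list's mean was 10.05 to 10.37 in heterozygous, 9.53 to 10.37 in null and 9.51 to 9.82 in wild-type arrays. Of 23 microglia and macrophage markers with a probe set, 20 were bright enough to be tested.

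Glycolysis turns glucose into pyruvate, and pyruvate is then either reduced to lactate by lactate dehydrogenase or carried into mitochondria and oxidised. When oxygen is scarce, prolyl hydroxylases stop marking the transcription factor HIF-1 alpha for destruction, and it switches on glucose transporters, many glycolytic enzymes, the pyruvate dehydrogenase kinases that hold pyruvate back from oxidation, and genes of blood vessel growth, collagen modification and mitophagy. Gliomas are known for both high lactate production and hypoxic zones next to necrosis.

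In heterozygous cells, 8 of the 33 tested genes rose against wild-type cells and 2 fell (limma, adjusted p under 0.05), where 4.2% and 5.95% of all 9243 tested genes rose and fell and 10.1% changed in either direction. The genes that rose were the glucose transporter Slc2a1, the hexokinase Hk2, the glycolytic enzyme Tpi1, the lactate dehydrogenase subunit Ldha, the pyruvate dehydrogenase kinase Pdk1, and the hypoxia targets Bnip3, Plod2 and Higd1a. Ldhb, the other main lactate dehydrogenase subunit, and Hif1a, which encodes HIF-1 alpha, fell. Null cells showed 0 such changes against wild-type cells, where 0% of all genes passed. The members that passed therefore made up 5 higher and 1 lower of 19 glycolytic genes and 3 higher and 1 lower of 14 hypoxia genes in heterozygous cells. Hk2, counted among the genes that rose, was above the filter level on 3 arrays only, both heterozygous ones and null replicate 2. It was thus tested only through the samples where it was high. In these bulk sorts, fewer cells of a type and less RNA per cell cannot be told apart. Since the labels do not say that each array is a separate animal, the p-values measure only the spread between these samples.

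**Figure D1:**
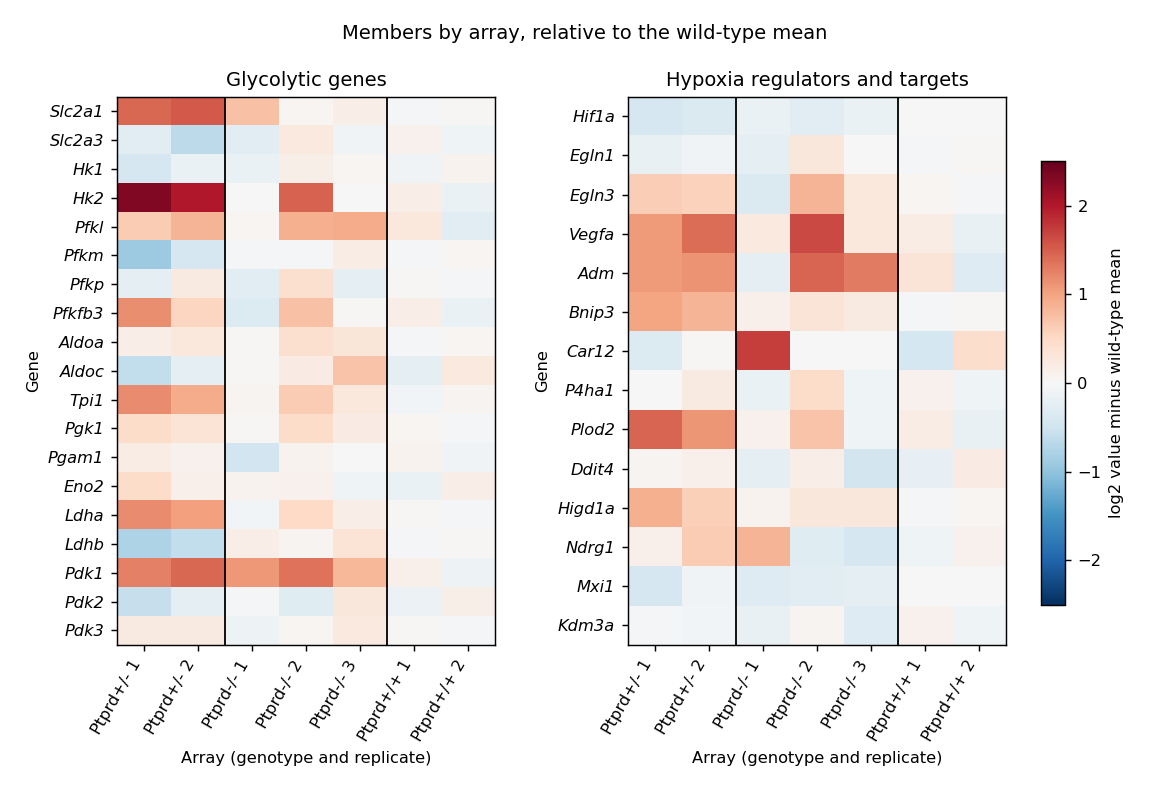
Log2 level minus the wild-type mean for the 33 tested genes (rows) on the 7 arrays (columns), red where higher and blue where lower, with the 19 glycolytic genes in the left panel and the 14 hypoxia genes in the right one, and the Ptprd+/- and Ptprd-/- arrays left of the Ptprd+/+ arrays. Slc2a1, Hk2, Ldha, Tpi1, Plod2 and Bnip3 are high on both heterozygous arrays, while Pdk1 is high on all heterozygous and null arrays.

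HIF-1 binds the core letters ACGTG or GCGTG on either strand, and 1 promoter is shown for each of the 7 risen genes that the RefSeq table holds, with and without matches, so that the letters in each can be read (Plod2 was not matched). The windows run from 250 bases before to 50 bases after each start site in RefSeq (build GRCm38.p6), read 5' to 3' on the gene's own strand, and capitals mark each match of ACGTG or GCGTG on either strand. They lie at chr4:119108495-119108794 on the plus strand for Slc2a1, chr6:82774405-82774704 on the minus strand for Hk2, chr7:46845554-46845853 on the plus strand for Ldha, chr6:124814109-124814408 on the minus strand for Tpi1, chr2:71872974-71873273 on the plus strand for Pdk1, chr7:138909457-138909756 on the minus strand for Bnip3 and chr9:121857747-121858046 on the minus strand for Higd1a.
Slc2a1: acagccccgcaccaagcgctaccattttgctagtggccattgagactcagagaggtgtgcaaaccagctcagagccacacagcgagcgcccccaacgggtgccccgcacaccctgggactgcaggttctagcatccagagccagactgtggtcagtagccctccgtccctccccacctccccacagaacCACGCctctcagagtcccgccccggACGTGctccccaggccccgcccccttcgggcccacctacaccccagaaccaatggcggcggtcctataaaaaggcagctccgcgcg
Hk2: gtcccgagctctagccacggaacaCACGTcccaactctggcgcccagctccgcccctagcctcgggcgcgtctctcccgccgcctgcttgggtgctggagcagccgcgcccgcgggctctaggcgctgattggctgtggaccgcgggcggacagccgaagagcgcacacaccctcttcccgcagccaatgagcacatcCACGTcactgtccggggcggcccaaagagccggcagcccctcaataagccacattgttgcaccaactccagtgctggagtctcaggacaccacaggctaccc
Ldha: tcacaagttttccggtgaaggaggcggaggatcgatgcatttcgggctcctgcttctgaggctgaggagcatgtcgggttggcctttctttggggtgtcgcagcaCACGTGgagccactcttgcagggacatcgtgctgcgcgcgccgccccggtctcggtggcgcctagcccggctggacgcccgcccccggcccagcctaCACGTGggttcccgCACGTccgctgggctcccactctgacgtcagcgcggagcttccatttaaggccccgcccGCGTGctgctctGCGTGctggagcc
Tpi1: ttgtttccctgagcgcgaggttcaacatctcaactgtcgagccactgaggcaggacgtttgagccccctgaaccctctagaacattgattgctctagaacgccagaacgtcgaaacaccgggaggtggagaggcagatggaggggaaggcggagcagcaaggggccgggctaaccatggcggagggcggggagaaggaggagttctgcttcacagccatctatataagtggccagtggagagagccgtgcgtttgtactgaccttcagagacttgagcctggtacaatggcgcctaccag
Pdk1: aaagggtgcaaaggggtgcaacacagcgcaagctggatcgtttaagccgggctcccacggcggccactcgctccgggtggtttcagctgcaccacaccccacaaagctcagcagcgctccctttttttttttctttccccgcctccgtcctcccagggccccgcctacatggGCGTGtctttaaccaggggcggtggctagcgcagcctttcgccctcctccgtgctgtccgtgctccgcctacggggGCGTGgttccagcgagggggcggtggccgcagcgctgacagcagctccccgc
Bnip3: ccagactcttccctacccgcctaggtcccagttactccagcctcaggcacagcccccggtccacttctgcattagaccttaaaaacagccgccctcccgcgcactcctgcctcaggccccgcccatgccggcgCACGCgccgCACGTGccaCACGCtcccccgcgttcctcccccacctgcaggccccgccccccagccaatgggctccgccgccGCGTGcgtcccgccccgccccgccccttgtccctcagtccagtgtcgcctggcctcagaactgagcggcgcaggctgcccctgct
Higd1a: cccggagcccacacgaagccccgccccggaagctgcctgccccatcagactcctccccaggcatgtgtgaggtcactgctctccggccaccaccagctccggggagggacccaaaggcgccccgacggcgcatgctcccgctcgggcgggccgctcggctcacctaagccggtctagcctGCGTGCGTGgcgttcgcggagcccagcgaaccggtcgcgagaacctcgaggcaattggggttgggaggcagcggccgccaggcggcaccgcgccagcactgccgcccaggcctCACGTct
The first Ldha window held 5 ACGTG matches, 4 of them as 2 copies of the palindrome CACGTG, which reads ACGTG on both strands and is also the letters of an E-box. The Hk2 window held 2 ACGTG matches, at 226 and 52 bases before the start site, and the Slc2a1 window held 1, at 36 bases before it. The Bnip3 window held 1 CACGTG and 3 GCGTG, and the first Pdk1 window held 2 GCGTG and 0 ACGTG. The Tpi1 window held neither, and the Higd1a window held 1 ACGTG and 2 overlapping GCGTG. Ldha and Pdk1 each have a second window, which held 2 GCGTG for Ldha and neither for Pdk1. Of the genes that fell, Hif1a had 3 ACGTG matches and 0 GCGTG in its window and Ldhb 0 ACGTG and 1 GCGTG. Of the 40 genes, 36 had a promoter window in the table, 54 windows in all. ACGTG was found in 28 of the 54 windows (51.9%), against 25.1% of the windows of all tested genes and 19.6% of all 32851 windows. Windows of the same gene can overlap and share a match, as for Aldoa. Counted per gene, ACGTG was found for 66.7% of these genes, 29.4% of tested genes and 21.8% of all genes with a window. The genes were chosen as hypoxia and glycolysis genes, so these shares are a description only. GCGTG was found in 53.7% of the genes' windows, against 50.7% for tested genes and 32.4% for all windows, and CACGTG in 11.1%, against 9.91% and 7.15%. The glycolytic windows held ACGTG in 47.2% and the hypoxia windows in 61.1%. GC content was 61.9% in the genes' windows, 60.8% in those of all tested genes and 53.8% in all windows. A match describes letters in a window, not a bound site.

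Glucose enters cells through facilitative transporters. Slc2a1 encodes GLUT1, the transporter of the blood-brain barrier and of many tumours, and its probe set 1434773_a_at read 9.97 and 10.07 in heterozygous cells, 9.26, 8.57 and 8.70 in null cells, and 8.50 and 8.57 in wild-type cells. Both heterozygous arrays stood above every null and wild-type array, and among null arrays replicate 1 was the highest. Slc2a1 rose by 1.49 ± 0.22 on the log2 scale in heterozygous cells, a 2.81-fold change (SE, adjusted p = 0.0129). Its other probe sets gave 1.45 and 1.16. Slc2a3 encodes GLUT3, the high-affinity transporter of neurons, and read 9.88 and 9.49 in heterozygous, 9.89, 10.38 and 10.05 in null and 10.25 and 10.04 in wild-type cells. Its heterozygous difference of -0.46 ± 0.20 did not pass (adjusted p = 0.18). Slc16a3, the lactate exporter MCT4, was below the filter, at 3.77 to 4.56 over the 7 arrays.

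Hexokinases trap glucose in the cell by phosphorylating it. Hk2, the inducible hexokinase of muscle and tumours, read 6.86 and 6.55 in heterozygous cells, 4.56, 6.02 and 4.55 in null cells, and 4.72 and 4.37 in wild-type cells (probe set 1422612_at). The heterozygous arrays were the highest and null replicate 2 came next, while the other null arrays lay between the wild-type ones. Hk2 rose by 2.17 ± 0.48 in heterozygous cells, 4.49-fold (adjusted p = 0.0372). Only 3 arrays, both heterozygous ones and null replicate 2, were above the filter level of 4.82 to 4.95, so Hk2 was tested only through the samples where it was high, and its wild-type level and its fold are uncertain. Hk1, the constitutive hexokinase of brain, read 8.69 and 8.94 in heterozygous, 8.94, 9.25 and 9.15 in null and 9.01 and 9.20 in wild-type cells, a heterozygous difference of -0.29 ± 0.15 that did not pass (adjusted p = 0.249).

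Phosphofructokinase commits sugar to glycolysis and has muscle, liver and platelet subunits, none of which passed in heterozygous cells against wild-type cells. Pfkm, the muscle subunit, read 8.69 and 9.18 in heterozygous, 9.55, 9.56 and 9.78 in null and 9.55 and 9.65 in wild-type cells, with both heterozygous arrays below all others. Its heterozygous difference of -0.67 ± 0.18 did not pass (adjusted p = 0.0586), while against heterozygous cells it was higher in null cells by 0.70 ± 0.16 (adjusted p = 0.0455). Pfkl, the liver subunit, differed by 0.75 ± 0.32 (adjusted p = 0.168) and Pfkp, the platelet subunit, by -0.01 ± 0.25 (adjusted p = 0.988). Pfkfb3, which makes the activator fructose 2,6-bisphosphate, differed by 0.85 ± 0.36 (adjusted p = 0.167), with 6.72 and 6.09 in heterozygous, 5.20, 6.28 and 5.57 in null and 5.72 and 5.39 in wild-type cells. Only null replicate 2 of the null arrays lay among the heterozygous values.

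Of the enzymes that split and oxidise the sugar, only Tpi1, triose phosphate isomerase, passed. It read 11.04 and 10.78 in heterozygous cells, 9.93, 10.50 and 10.12 in null cells, and 9.79 and 9.93 in wild-type cells (probe set 1452927_x_at). Both heterozygous arrays were above all null arrays, and null replicate 2 was the highest of those. Tpi1 rose by 1.05 ± 0.20, 2.07-fold (adjusted p = 0.0244), and all 3 of its probe sets gave 1.05 to 1.11. Its probe set is of the kind that Affymetrix marks with an x for probes that may also match other transcripts. The aldolases did not pass: Aldoa, the ubiquitous form, differed by 0.21 ± 0.14 (adjusted p = 0.366) and Aldoc, the brain form, by -0.42 ± 0.27 (adjusted p = 0.346). Pgk1, phosphoglycerate kinase, an ATP-making step, differed by 0.40 ± 0.15 (adjusted p = 0.129), with 11.48 and 11.35 in heterozygous and 11.06 and 10.96 in wild-type cells. Pgam1, phosphoglycerate mutase, differed by 0.15 ± 0.20 (adjusted p = 0.658) and Eno2, the neuronal enolase, by 0.30 ± 0.17 (adjusted p = 0.274). The Gapdh control probe sets, which were not tested, read 0.16 to 0.27 higher in heterozygous than in wild-type cells and 0.11 to 0.15 higher in null than in wild-type cells.

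Lactate dehydrogenase is a tetramer whose A subunit favours lactate and whose B subunit favours pyruvate. Ldha read 11.47 and 11.32 in heterozygous cells, 10.22, 10.79 and 10.46 in null cells, and 10.33 and 10.26 in wild-type cells (probe set 1419737_a_at). The null arrays spanned the wild-type values, and both heterozygous arrays were above all others. Ldha rose by 1.10 ± 0.18, 2.15-fold (adjusted p = 0.0178). Ldhb (probe set 1434499_a_at) read 10.41 and 10.56 in heterozygous cells, 11.34, 11.25 and 11.51 in null cells, and 11.14 and 11.21 in wild-type cells, with both heterozygous arrays the lowest. It fell by 0.70 ± 0.13, 1.62-fold lower (adjusted p = 0.0222), and its 4 probe sets gave -0.69 to -0.80. Levels of the A and B subunits are not set against each other, since each comes from its own probe set.

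**Figure D2:**
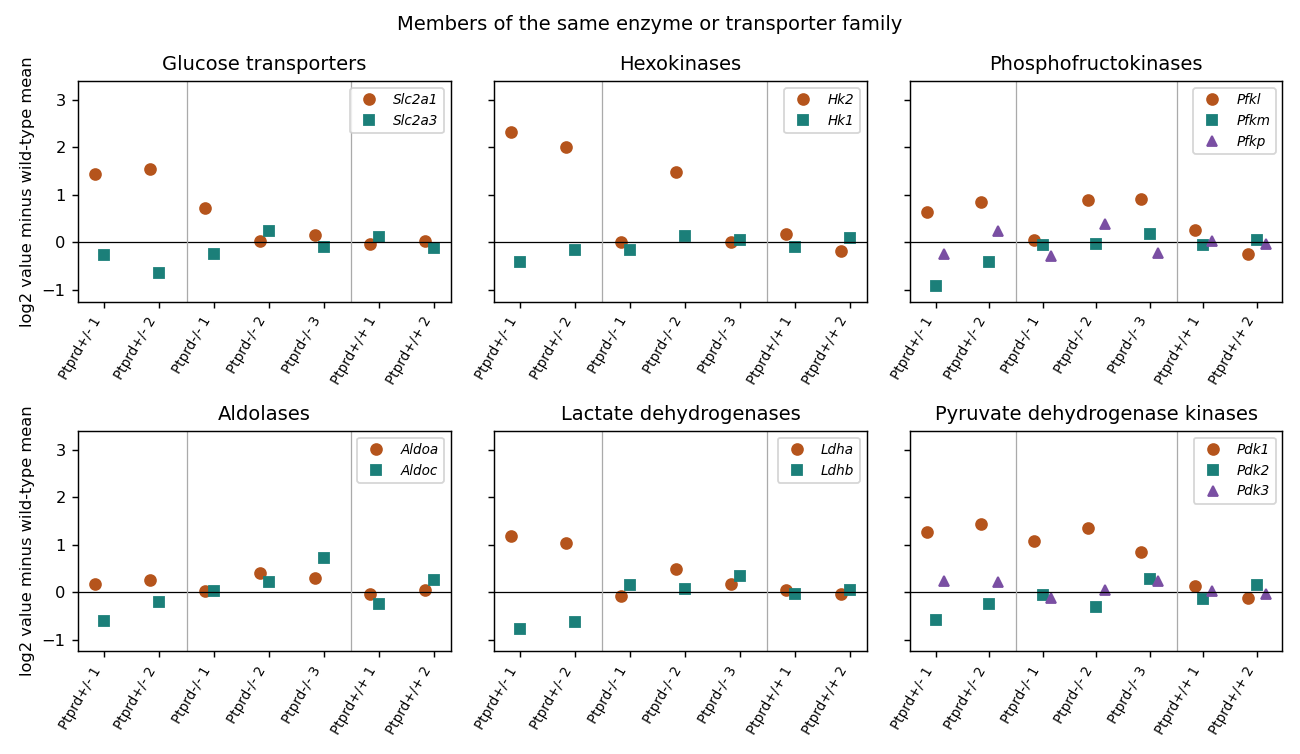
Log2 level minus the wild-type mean (vertical axis) on each array for genes of the same family, in panels of glucose transporters, hexokinases, phosphofructokinases, aldolases, lactate dehydrogenases and pyruvate dehydrogenase kinases, with 1 symbol per gene and the arrays ordered Ptprd+/-, Ptprd-/-, Ptprd+/+. Slc2a1, Hk2 and Ldha lie above the wild-type mean and Slc2a3, Hk1 and Ldhb below it on both heterozygous arrays, where only Slc2a1, Hk2, Ldha and Ldhb passed the test.

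Pyruvate dehydrogenase kinases switch off the mitochondrial entry of pyruvate. Pdk1 read 6.63 and 6.80 in heterozygous cells, 6.45, 6.72 and 6.21 in null cells, and 5.50 and 5.24 in wild-type cells (probe set 1423748_at). Heterozygous and null arrays overlapped, and all 5 of them stood above both wild-type arrays. Pdk1 rose by 1.34 ± 0.18 in heterozygous cells, 2.54-fold (adjusted p = 0.0113), and differed by 1.09 ± 0.17 in null cells, with an unadjusted p of 0.000328 and an adjusted p of 0.883. Its second probe set read 7.06 and 6.91 in heterozygous cells, 6.11, 7.05 and 5.64 in null cells, and 4.11 and 3.79 in wild-type cells, whose values were below the filter level. Pdk2 differed by -0.41 ± 0.22 (adjusted p = 0.248) and Pdk3 by 0.22 ± 0.14 (adjusted p = 0.32) in heterozygous cells, and Pdk4 was below the filter at 3.24 to 4.79.

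Among hypoxia regulators, Hif1a was lower in heterozygous cells. Its probe set 1427418_a_at read 11.25 and 11.31 in heterozygous cells, 11.51, 11.41 and 11.51 in null cells, and 11.68 and 11.67 in wild-type cells, so the groups did not overlap and null lay between. It fell by 0.40 ± 0.10 in heterozygous cells (adjusted p = 0.0499), a call that was lost in 14 of 16 other settings, and its other bright probe sets gave -0.44 and -0.12. HIF-1 alpha is controlled mainly by protein stability, which these arrays do not measure. Egln1 and Egln3, the prolyl hydroxylases that mark it, differed by -0.14 ± 0.17 (adjusted p = 0.644) and 0.59 ± 0.34 (adjusted p = 0.282). Egln3 read 6.80 and 6.77 in heterozygous cells, 5.83, 7.04 and 6.45 in null cells, and 6.25 and 6.14 in wild-type cells, with the null arrays both above and below the wild-type ones.

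Bnip3, a mitophagy and cell-death protein of the mitochondrial outer membrane, had the smallest adjusted p of the 33 genes. It read 10.13 and 10.01 in heterozygous cells, 9.28, 9.47 and 9.37 in null cells, and 9.13 and 9.18 in wild-type cells (probe set 1422470_at), in 3 bands that did not overlap. It rose by 0.92 ± 0.11 in heterozygous cells, 1.89-fold (adjusted p = 0.00864). Plod2, a lysyl hydroxylase of collagen, read 8.71 and 8.36 in heterozygous cells, 7.36, 7.97 and 7.15 in null cells, and 7.44 and 7.06 in wild-type cells (probe set 1416687_at). It rose by 1.28 ± 0.28, 2.43-fold (adjusted p = 0.0365), a call that was lost in 9 of 16 other settings. Its second probe set gave 0.60 and did not pass where every probe set was fitted on its own (limma adjusted p = 0.138). Higd1a, a mitochondrial protein induced by hypoxia, read 10.51 and 10.23 in heterozygous cells, 9.71, 9.91 and 9.92 in null cells, and 9.59 and 9.67 in wild-type cells (probe set 1416480_a_at). It rose by 0.74 ± 0.14, 1.67-fold (adjusted p = 0.0234), but its other probe sets gave -0.20 and -0.03, so the probe sets disagree.

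**Figure D3:**
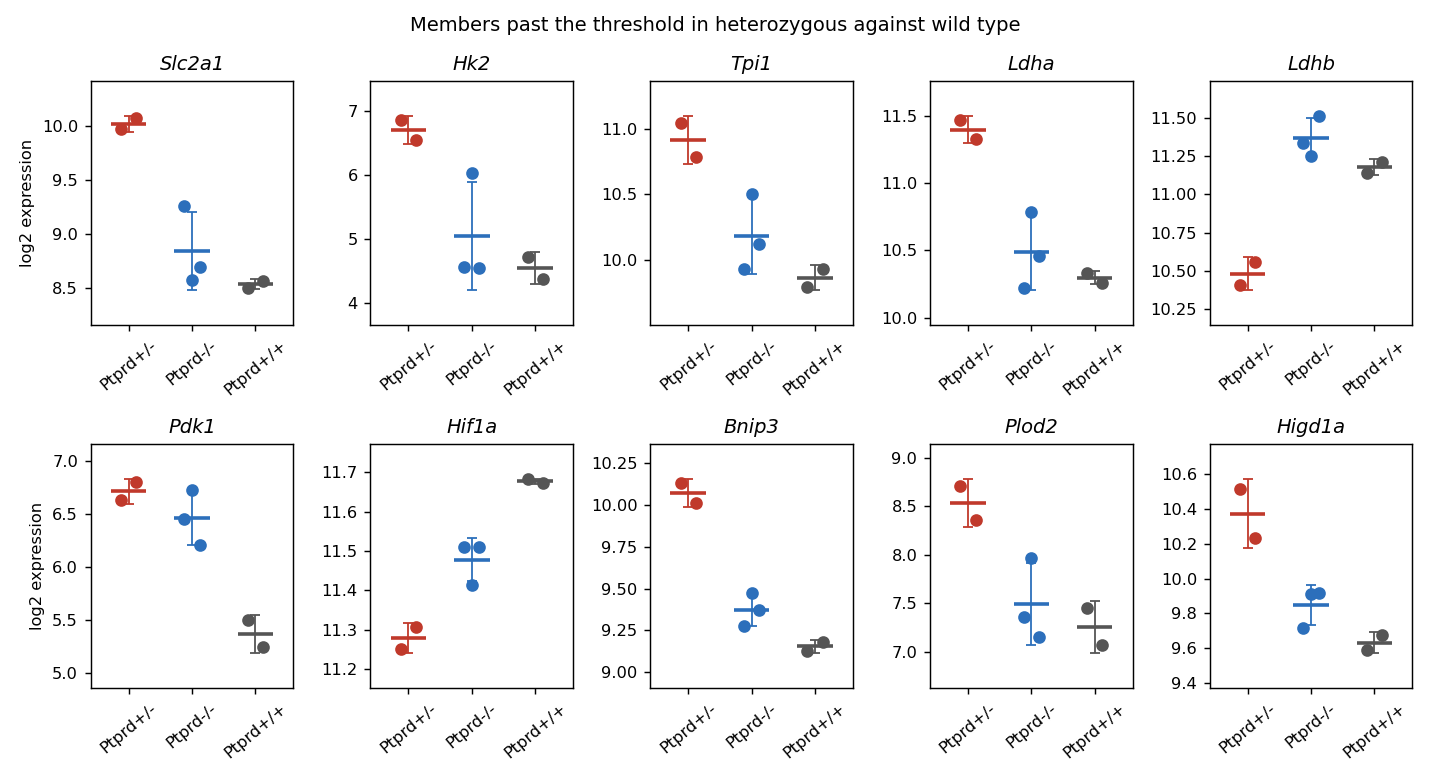
Log2 levels (vertical axis, cut to the range of each gene) of the 10 genes that passed in heterozygous against wild-type cells, with a point per Ptprd+/-, Ptprd-/- and Ptprd+/+ array and bars for each group's mean and SD. The heterozygous points lie apart from the wild-type points in each panel, and for Pdk1 the null points overlap the heterozygous ones. For Slc2a1 and Ldha the null points lie below the heterozygous ones, and the highest null points are replicate 1 for Slc2a1 (9.26) and replicate 2 for Ldha (10.79).

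The other hypoxia targets did not pass in the probe sets chosen by brightness. Vegfa, the blood vessel growth factor, read 9.50 and 9.82 in heterozygous cells, 8.68, 10.09 and 8.70 in null cells, and 8.63 and 8.24 in wild-type cells, a heterozygous difference of 1.23 ± 0.46 (adjusted p = 0.129). Its second probe set, dimmer, read 6.56 and 6.93 in heterozygous cells, 6.43, 6.82 and 6.41 in null cells, and 5.65 and 5.77 in wild-type cells, and passed where every probe set was fitted on its own (1.04 ± 0.19, adjusted p = 0.0257), with 0.85 ± 0.17 in null against wild-type cells (adjusted p = 0.804). Adm, adrenomedullin, a vasodilator peptide, read 8.42 and 8.47 in heterozygous, 7.10, 8.80 and 8.65 in null and 7.67 and 7.04 in wild-type cells, a difference of 1.09 ± 0.54 (adjusted p = 0.221). In the chosen probe sets of both genes, 1 or 2 null arrays lay above the heterozygous values and the others near wild type. Ndrg1, a stress gene, differed by 0.38 ± 0.41, with 8.13 and 8.65 in heterozygous, 8.85, 7.71 and 7.60 in null and 7.91 and 8.12 in wild-type cells. Car12, a membrane carbonic anhydrase, read 6.67 in null replicate 1 and 4.51 to 5.39 on the other arrays, and differed by -0.16 ± 0.59 in heterozygous cells. Mxi1 and Kdm3a, a MYC antagonist and a histone demethylase, differed by -0.26 and -0.06, and P4ha1 and Ddit4, a collagen prolyl hydroxylase and an mTOR inhibitor, by 0.11 and 0.10. P4ha2, also a collagen prolyl hydroxylase, was below the filter at 3.06 to 4.09.

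**Figure D4:**
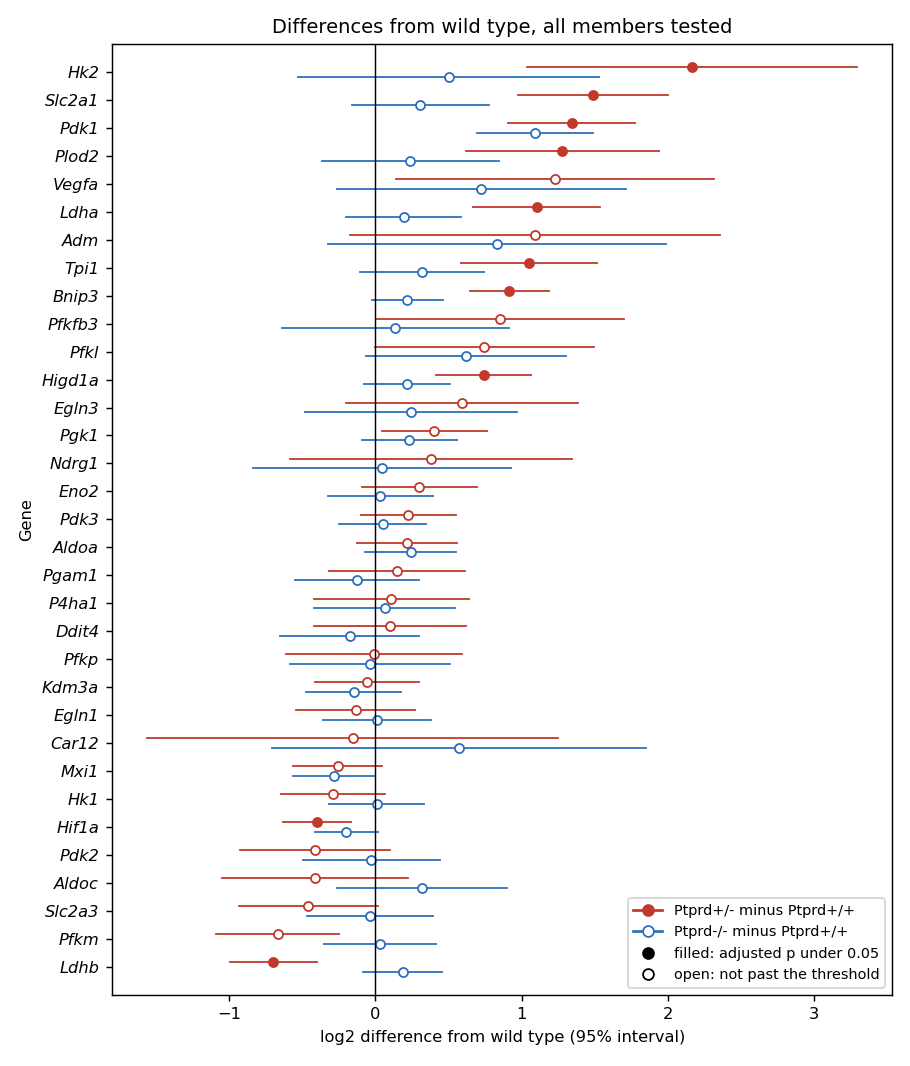
Log2 difference (horizontal axis) of each tested gene with its 95% interval, for heterozygous minus wild type (red) and null minus wild type (blue), with filled points where the adjusted p was under 0.05. Slc2a1 lies at 1.49 with an interval of 0.97 to 2.00 in heterozygous cells, and no gene is filled for null minus wild type. The value of Hk2 in the top row is uncertain, since it was above the filter level on 3 arrays only and on neither wild-type array.

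The median log2 difference was 0.22 over the 19 glycolytic genes and 0.25 over the 14 hypoxia genes in heterozygous cells, against -0.04 over all tested genes. The hypoxia median was 0.094 with heterozygous replicate 2 left out, 0.40 with heterozygous replicate 1 left out and 0.39 with wild-type replicate 2 left out. In null cells it was 0.19 and 0.14, against 0.00 for all genes. The heterozygous and null comparisons share the same wild-type arrays, so their values are given side by side only. The null arrays differed among themselves. Null replicate 2 was above both wild-type arrays for 22 of the 33 genes (66.7%, against 33.0% of all tested genes), null replicate 3 for 17 (51.5%, against 40.8%) and null replicate 1 for 9 (27.3%, against 31.8%). Heterozygous replicate 1 was above both wild-type arrays for 19 genes (57.6%, against 35.0%) and replicate 2 for 20 (60.6%, against 35.9%), and they were below both for 10 and 8 genes, where 47.8% and 42.2% of all genes were. Null replicates 1, 2 and 3 lay below both wild-type arrays for 14, 4 and 6 genes, where 41.7%, 31.4% and 32.0% of all genes did.

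Null cells set against wild-type cells gave 0 of 33 genes past the threshold and 0 of 9243 genes over all, with 475 genes at an unadjusted p under 0.05 and a smallest adjusted p of 0.882. Pdk1 was the higher of the 2 members with an unadjusted p under 0.05, and Mxi1 the lower, with a null difference of -0.28 ± 0.12 (unadjusted p = 0.0454). Mxi1 read 9.39, 9.44 and 9.47 in null cells, against 9.71 and 9.73 in wild-type cells. For the other genes that rose in heterozygous cells, the null minus wild-type difference was 0.31 for Slc2a1 (95% interval -0.16 to 0.78), 0.50 for Hk2 (-0.53 to 1.53), 0.32 for Tpi1 (-0.10 to 0.75) and 0.19 for Ldha (-0.20 to 0.59). It was 0.22 for Bnip3 (-0.02 to 0.46), 0.24 for Plod2 (-0.36 to 0.84) and 0.22 for Higd1a (-0.08 to 0.51). These intervals hold 0 and also hold differences of 0.46 or more, so a moderate rise in null cells could not be told from none with these arrays. Besides Pdk1 (1.09, 0.69 to 1.49), Adm, Vegfa and Pfkl had differences of more than 0.6 that did not pass. These were 0.83 for Adm (-0.32 to 1.99), 0.73 for Vegfa (-0.27 to 1.72) and 0.62 for Pfkl (-0.07 to 1.30). In Adm, Vegfa and Pfkl at least 1 null array lay near or between the wild-type arrays and at least 1 above the heterozygous ones.

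Null cells set against heterozygous cells gave 2 higher and 4 lower of 33 genes, where 5% and 3.96% of all genes were higher and lower and 8.96% changed either way. Ldhb was higher in null cells by 0.88 ± 0.12 (adjusted p = 0.0114) and Pfkm by 0.70 ± 0.16 (adjusted p = 0.0455). Bnip3 was lower by 0.70 ± 0.10 on the log2 scale (adjusted p = 0.0154), Slc2a1 by 1.18 ± 0.20 (adjusted p = 0.0209), Ldha by 0.91 ± 0.17 (adjusted p = 0.0265) and Higd1a by 0.52 ± 0.12 (adjusted p = 0.0471). The Higd1a call was lost in 12 of 16 other settings, and its other probe sets gave 0.20 and 0.07, the opposite direction. The calls of Pfkm, Ldha, Slc2a1, Bnip3 and Ldhb were lost in 11, 9, 5, 4 and 3 of the 16 settings. Plod2, Tpi1 and Hk2 differed by -1.04, -0.73 and -1.66 and had adjusted p of 0.0506, 0.0509 and 0.058. Pdk1 differed by -0.25 ± 0.17 (adjusted p = 0.367). An F test of any difference among the 3 genotypes passed for 7 of 33 genes, where 5.65% of all genes passed, and these were Bnip3, Pdk1, Ldhb, Slc2a1, Ldha, Higd1a and Tpi1.

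Leaving out single arrays ended many of these calls. Without heterozygous replicate 1, or without wild-type replicate 2, 0 of the 10 genes called in heterozygous cells passed, and without wild-type replicate 1 only Pdk1 did. Over all genes, the 938 calls dropped to 75, 33 and 196 in these 3 settings. Without heterozygous replicate 2, 8 of the 33 genes passed, Pfkm among them, and 715 of all genes. Against heterozygous cells, 0 genes passed in null cells without heterozygous replicate 1, 1 (Ldhb) without null replicate 3, 3 without null replicate 1 or either wild-type array, 4 without heterozygous replicate 2 and 8 without null replicate 2. Over all genes, 828 passed in null against heterozygous cells with every array, 55 without heterozygous replicate 1, 205 without null replicate 3, 295 without null replicate 1, 355 and 356 without wild-type replicates 1 and 2, 640 without heterozygous replicate 2 and 735 without null replicate 2. In all of these the called genes kept their direction. Without heterozygous replicate 1 and null replicate 1, in which Xist and Y-linked transcripts were both present, 0 genes passed in either comparison and all the called genes again kept their direction, with adjusted p of 0.0791 to 0.257 for heterozygous against wild-type cells.

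Other genes of the same pathways were taken from lists, whose counts are to be read against the 4.2% of all tested genes that rose and the 5.95% that fell in heterozygous cells. Of 21 other tested genes of glycolysis and pyruvate use, 1 rose in heterozygous cells (4.76%, near the share of all genes) and 0 fell: Pgm2, a phosphoglucomutase, read 7.84 and 7.75 in heterozygous cells against 7.34 and 7.26 in wild-type cells (0.50 ± 0.12, adjusted p = 0.0454). Slc2a4, the insulin-responsive transporter GLUT4, Fbp1, the gluconeogenic fructose bisphosphatase, and Slc16a1, the lactate transporter MCT1, differed by 0.37, -0.99 and 0.43 and did not pass. In null cells against heterozygous cells Slc16a1 was lower by 0.69 on the log2 scale (adjusted p = 0.0419), with 9.64, 10.14 and 9.91 in null cells against 10.66 and 10.50 in heterozygous cells. Of 9 pentose phosphate genes, 0 rose and 1 (11.1%) fell: Rpia, ribose 5-phosphate isomerase, fell by 0.67 ± 0.15 in heterozygous cells (adjusted p = 0.038), and Prps1, which makes PRPP, Pgls and Tkt differed by 1.40, 0.43 and 0.35 and did not pass. Of 10 other hypoxia pathway regulators, 0 rose and 1 (10%) fell: Epas1, which encodes HIF-2 alpha, fell by 0.98 ± 0.16 in heterozygous cells (adjusted p = 0.0169), at 5.27 and 5.40 in heterozygous, 6.34, 6.23 and 6.27 in null and 6.08 and 6.54 in wild-type cells. Crebbp, Vhl and Arnt2, a HIF coactivator, the ubiquitin ligase that destroys HIF and a HIF partner, differed by -0.51, -0.39 and -0.40 and did not pass. Of 32 other hypoxia targets, 3 rose (9.38%) and 0 fell: the metallothionein Mt1 by 1.67 ± 0.15 (adjusted p = 0.00403), Fam162a, a mitochondrial protein, by 0.86 ± 0.10 (adjusted p = 0.00749) and Cxcr4, a chemokine receptor, by 0.85 ± 0.18 (adjusted p = 0.0326). Plod1, a lysyl hydroxylase, differed by -0.68 and did not pass (adjusted p = 0.0583). Car9, a carbonic anhydrase used as a hypoxia marker, was below the filter. In null against heterozygous cells, Slc16a1 and Pgm2 were lower, Prps1 was lower and Rpia higher, Epas1 was higher, and Mt1, Fam162a and Cxcr4 were lower, with no other gene of these lists past the threshold. In null against wild-type cells, 0 genes of these lists passed, as for all genes.

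Some cell-type markers also differed between heterozygous and wild-type cells, most of all those of microglia and macrophages. Counts in these lists are to be read against the 4.2% of all tested genes that rose and the 5.95% that fell in heterozygous cells. Of 20 tested microglia and macrophage markers, 16 (80%) rose in heterozygous cells and 0 fell, with Ptprc at 1.40, Cd53 at 1.72 and Cd68 at 0.93. Lower in null than in heterozygous cells were 12 of the 20 (60%, against 3.96% of all tested genes). The list's mean level was 6.16 to 6.53 in heterozygous, 5.24 to 5.59 in null and 5.10 to 5.35 in wild-type arrays. The other 3 of the 23 measured markers, Aif1, Itgam and Mrc1, were below the filter, and the median difference of the 20 tested was 1.31, against -0.04 over all genes. Of 10 astrocyte markers, 3 rose (Gfap 1.49, Sox9 1.34 and Aldh1l1 1.46) and 1 fell. Their differences ran from -0.76 to 1.77, with 7 above 0 and 3 below. The astrocyte list's mean was 8.15 to 8.29 in heterozygous, 7.19 to 7.84 in null and 7.41 to 7.54 in wild-type arrays. Of 8 oligodendrocyte progenitor markers, 3 fell, Olig2 by 0.67, Ptprz1 by 0.61 and Pdgfra by 0.65, and 1, the only marker above 0, rose by 0.89. Of 8 neuron markers, Snap25 fell by 0.84 and Gad1 by 1.24, and Syn1 differed by -0.45 and did not pass. The neuron markers were split, with 4 above 0 and 4 below and differences from -1.24 to 0.60. Rbfox3, Syt1, Slc17a6 and Gad2 were below the filter. Of 9 endothelial and pericyte markers, Tagln rose by 1.58, while Kdr differed by 0.19 and Acta2 by 0.82 and did not pass. The 9 markers were split, with 5 above 0 and 4 below, a lowest difference of -0.26 and a median of 0.00. That list's mean was 5.17 to 5.21 in heterozygous, 4.81 to 5.23 in null and 4.97 to 5.15 in wild-type arrays. Pecam1, Cdh5, Tek, Tie1, Emcn and Kcnj8 were below the filter. None of 4 granulocyte markers passed (Elane 0.36, Camp 0.11 and S100a9 -0.14, with Ngp, Ltf, Csf3r and Mpo below the filter). In null against wild-type cells all 4 granulocyte markers lay above 0, with a median of 0.60, and none passed. Nor did any of 8 myelin markers pass in heterozygous cells (Mag 0.94, Cldn11 1.23 and Mog 0.96), where 6 lay above 0 and 2 below. Of 17 dissociation and immediate early genes, 3 rose, Zfp36 by 1.35, Junb by 1.01 and Atf3 by 1.65, and 1 fell. Their differences ran from -1.06 to 1.65, with 9 above 0, 8 below and a median of 0.02. The list's mean was 8.32 to 8.36 in heterozygous, 8.19 to 8.39 in null and 8.03 to 8.58 in wild-type arrays. RNA quality, read as the 3' minus 5' difference of control probe sets, was 0.75 and 0.90 in heterozygous, 0.91, 0.62 and 0.81 in null and 0.83 and 0.61 in wild-type arrays. The part of these markers in the glycolysis and hypoxia results was not tested.

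**Figure D5:**
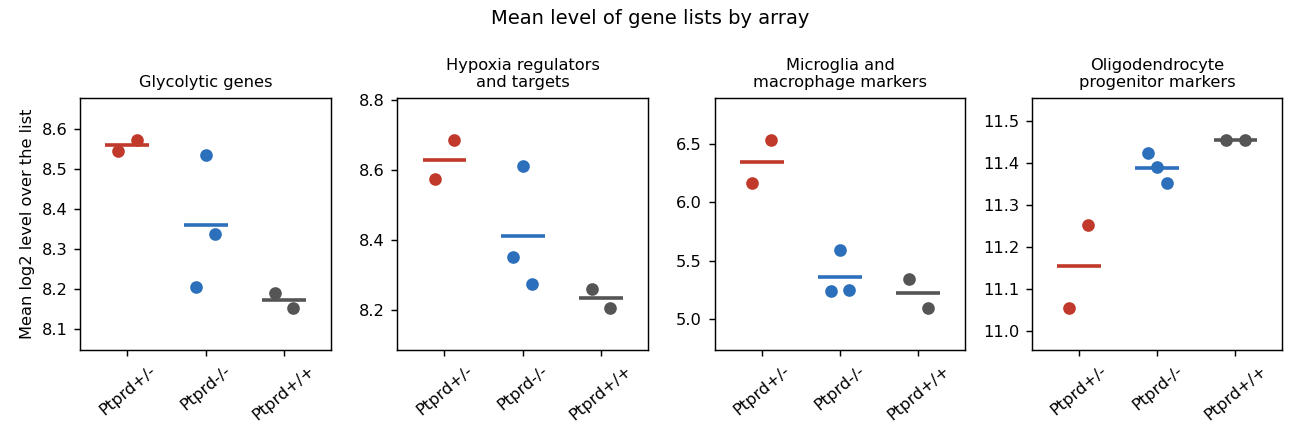
Mean log2 level over each list (vertical axis, cut to the range of each panel) on each array, for glycolytic genes, hypoxia regulators and targets, microglia and macrophage markers, and oligodendrocyte progenitor markers, with a point per array, a bar for the group mean, and Ptprd+/- and Ptprd-/- left of Ptprd+/+. The microglia and macrophage list reaches 6.16 and 6.53 on the heterozygous arrays, against 5.10 to 5.35 on the wild-type arrays.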

How the data were processed

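RNA of sorted glioma cells was measured on 7 Affymetrix 3' expression arrays. The deposited values are log2 expression, made by the authors with RMA in Partek 6.6, per the submitters' processing notes. Of 22690 probe sets, 64 were controls, and of the rest 20380 named 1 gene, 691 named several and 1555 named none. The brightest probe set per gene over all arrays stood for the gene, and a gene was tested if it was above the array's 30th percentile on at least 2 arrays. limma 3.58.1 (R 4.3.3) fitted the 3 genotypes together on 9243 genes with 4 residual degrees of freedom, with Benjamini-Hochberg adjustment over all of them and a threshold of 0.05, and the fit was tested on simulated data. Groups came from the sample titles. Promoter windows came from RefSeq (GRCm38.p6). No 2 arrays held identical values. All 40 genes are named, those past the threshold in any comparison with every array's value, and from the other lists up to 4 pathway genes or 3 markers of smallest p. The members and lists were chosen with earlier results of these data known. Alternatives were centring, filters, averaged probe sets, a 3' minus 5' covariate, an intensity trend, a replicate block, fitting only the groups compared, and leaving out each array. Protein sequences were not used here.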

Additional observations from a re-analysis of the deposited data

How the results depend on the processing

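Over the alternatives, none of the 33 genes reversed past the threshold in any comparison. In heterozygous against wild-type cells, 6 glycolytic and 4 hypoxia genes passed, among 938 genes in all. Of these calls, besides Hif1a and Plod2, those of Higd1a and Ldhb were lost in 7 of 16 other settings and that of Tpi1 in 6. The Slc2a1 and Ldha calls were lost in 5 of 16, Bnip3 in 4, Pdk1 in 3, and Hk2 in 6 of 15. Fitting only the groups compared gave 172 genes in all and 1 hypoxia gene, the 3' minus 5' covariate 372 and 2, and averaging the probe sets of each gene 2 hypoxia genes. In null against heterozygous cells, 4 glycolytic and 2 hypoxia genes passed, among 828 in all. Fitting only the groups compared gave 355 genes, 2 glycolytic and 1 hypoxia, the 3' minus 5' covariate 471 genes and 1 hypoxia gene, and no filter 1 hypoxia gene. The F test gave 522 genes, and 217 with that covariate. Null against wild-type cells gave 0 genes, and 1 with averaged probe sets. With the replicate number as a block (2 residual degrees of freedom), 217 genes, 1 glycolytic and 1 hypoxia gene passed in heterozygous against wild-type cells, 25, 0 and 0 in null against heterozygous cells, and 29 genes in the F test. Same-numbered arrays correlated at -0.414 to 0.111 in their deviations from their group means. In a group of 2 arrays these deviations are mirror images, so this check cannot decide whether the numbers pair arrays. Leaving out 1 array at a time gave 33 to 769 genes, 0 to 6 glycolytic and 0 to 4 hypoxia genes in heterozygous against wild-type cells, 55 to 735, 0 to 5 and 0 to 3 in null against heterozygous cells, 9 to 479 in the F test, and 0 to 1 in null against wild-type cells. The medians in heterozygous against wild-type cells then ran from 0.22 to 0.26 for glycolytic genes and from 0.094 to 0.40 for hypoxia genes. Those in null against wild-type cells ran from 0.063 to 0.20 for glycolytic genes and from -0.026 to 0.20 for hypoxia genes, and that of hypoxia genes in null against heterozygous cells from -0.34 to -0.057. Leaving out an array so as to leave 1 in a group assumes that it varies like the others. Without heterozygous replicate 1 and null replicate 1, left out together because of their Xist and Y-linked signals (chosen after seeing the data), 0 genes passed in any comparison, with 1752 at an unadjusted p under 0.05 in heterozygous against wild-type cells and 1380 in null against heterozygous cells. The cause of these changes was not tested. With every probe set fitted on its own, 14 of 64 member probe sets rose and 4 fell in heterozygous cells. Over all 16262 probe sets, 1245 changed in either direction (7.66%). Probe sets of 1 gene are not separate genes: the 4 that fell were all of Ldhb, and Slc2a1 and Tpi1 gave 3 each of those that rose. In this fit the brightest Hif1a probe set did not pass (limma adjusted p = 0.0578).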
